A study of Mus musculus with 4 samples.

Results

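The genes described here encode the fibroblast growth factor (FGF) receptors, 2 of their ligands and inhibitors of their signal, among them ones that FGF signalling itself induces. They were chosen by name. Values were taken for 9 of the 10 named genes, out of 13815 genes listed: the receptor genes Fgfr1, Fgfr2, Fgfr3 and Fgfr4, the ligand gene Fgf4, and the feedback genes Dusp6, Dusp9, Spry2 and Spry4. Fgf5, a ligand gene known as a marker of the primed epiblast, was not analysed here. The mRNA libraries, of polyadenylated RNA, came from mouse embryonic stem cells lacking Dgcr8, from cells lacking Dicer and from the V6.5 line (WT), and a small RNA library came from WT alone. DGCR8 is the partner of Drosha that releases miRNA hairpins in the nucleus, and Dicer cuts those hairpins into mature miRNAs. The labels give V6.5 as the strain of every sample. All cells were kept with leukaemia inhibitory factor and serum. The labels describe neither the knockout alleles nor how many clones were used. Each group has 1 library, so the comparisons carry no test, and differences between lines or cultures cannot be told apart from genotype.

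FGF ligands bind receptor tyrosine kinases on the cell surface together with heparan sulphate, and the receptors pass the signal through FRS2, GRB2, SOS and RAS to the kinase ERK. In mouse embryonic stem cells FGF4 is the main ligand made by the cells themselves, and ERK activity moves the cells from self-renewal towards commitment. ERK in turn induces its own brakes. Among them are the phosphatase DUSP6, which removes phosphate from ERK, and the Sprouty proteins, which act between the receptor and ERK. Such feedback transcripts are therefore often read as a sign of pathway output, although none of the values here measures the activity of a protein. DUSP9 also removes phosphate from ERK and related kinases. In these cells it is known to be induced by BMP signalling, so its transcript cannot be read as FGF output alone.

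The libraries held 11123498 counts for the Dgcr8 knockout, 12309100 for the Dicer knockout and 9931625 for WT. Levels are in counts scaled to the library total (CPM), and 1 CPM is 11.12 counts in Dgcr8 knockout cells, 12.31 in Dicer knockout cells and 9.93 in WT. Intervals are exact 95% intervals for counting error only, and low counts were mostly even (69.6% to 74.8% of counts from 2 to 9), so they are too narrow if each mate of a read pair was counted. Each targeted gene was lower in its own knockout: Dgcr8 had 20.9 CPM in its knockout and 52.7 CPM in WT, and Dicer1 had 20.1 CPM in its knockout and 79.9 CPM in WT. All 10 pluripotency markers examined were at 76.9 CPM or more in every library, with Pou5f1 at 1898 CPM in Dgcr8 knockout cells, 1635 CPM in Dicer knockout cells and 2207 CPM in WT. Their levels were not alike: 2 of the 10 were at least 2-fold lower than WT in Dgcr8 knockout cells and 3 in Dicer knockout cells. Klf4 was 4.16-fold lower (3.90 to 4.45) without Dgcr8 and 5.59-fold lower (5.21 to 6.01) without Dicer, and Tdgf1 3.15-fold lower (3.06 to 3.25) without Dgcr8 and 3.53-fold lower (3.42 to 3.64) without Dicer. Zfp42 had 386 CPM in Dgcr8 knockout cells, 95.1 CPM in Dicer knockout cells and 488 CPM in WT. The part of these differences in the levels of the FGF genes was not tested. Transcript lengths were not used, so levels are compared between libraries and never between genes.

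Fgfr3, Fgfr4, Dusp9, Spry2 and Spry4 were lower in both knockouts than in WT, with Fgfr3 and Dusp9 farthest down. Fgf4 was higher, and Dusp6 was near its WT level. In the Dgcr8 knockout against WT, 5 of the 9 genes were lower by 2-fold or more, measured on log2(CPM + 1), and 1 was higher by as much. Of the 13223 genes that reached 1 CPM in either library of the pair, 8.02% were lower and 14.3% higher by that rule, 22.3% in all. The members' median log2 ratio was -1.10, and that of all genes was 0.11. In the Dicer knockout against WT, 5 of the 9 were at least 2-fold lower and 2 at least 2-fold higher, where 9.7% and 16% of 13403 genes were, 25.7% in all. The members' median was -1.18, and that of all genes was 0.10. Fgfr3 and Fgfr4 reached 1 CPM through WT alone, so they could hardly have come out other than lower. The counts of lower genes and the medians include them. Among the other members, Dusp9, Spry2 and Spry4 were at least 2-fold lower in both knockouts. Fgfr1, Fgfr2, Fgf4 and Dusp6 were so in neither, and a fall of the whole group cannot be read from the medians. Both comparisons use the same WT library, so they are not independent of each other. In bulk RNA, fewer cells with a transcript and less of it per cell cannot be told apart.

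**Figure D1:**
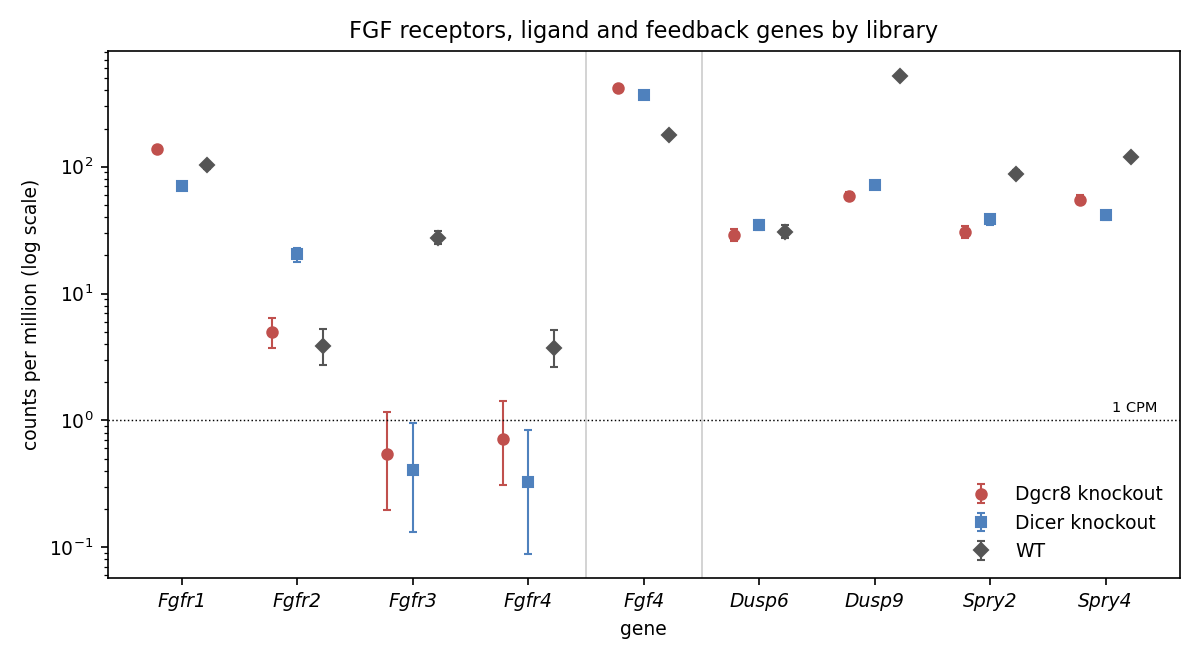
Level of each FGF gene in CPM (vertical log axis) in Dgcr8 knockout cells, the Dicer knockout and WT, 1 library each; bars are exact 95% intervals for counting error. The WT diamond lies above both knockouts for Fgfr3, Fgfr4, Dusp9, Spry2 and Spry4 and below both for Fgf4, and Fgfr2 stands out in Dicer knockout cells at 20.3 CPM.

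**Figure D2:**
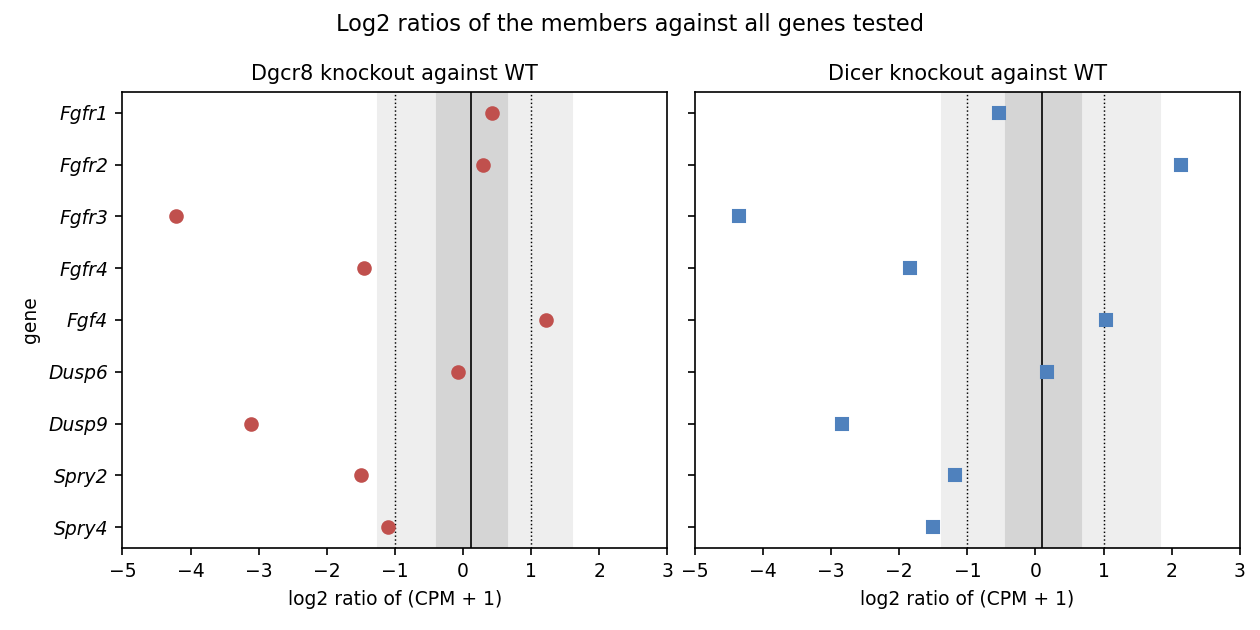
Log2 ratio of (CPM + 1) of each FGF gene (points) in the Dgcr8 knockout against WT (left) and the Dicer knockout against WT (right). Dark and light grey bands hold the central 50% and 90% of all genes tested, the solid line is their median and the dotted lines mark 2-fold; Fgfr3 and Dusp9 lie far to the left of the light band in both panels.

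Among the receptors, Fgfr3 was nearly lost from both knockout libraries. It had 6 counts (0.539 CPM) in Dgcr8 knockout cells and 5 counts (0.406 CPM) in Dicer knockout cells, against 274 counts (27.6 CPM) in WT. Both knockout libraries lay far below WT, with counting intervals that ended at 1.17 and 0.948 CPM and a WT interval that began at 24.4 CPM. In the Dicer knockout this was 67.9-fold lower (28.8 to 211). Of all genes tested, only 3 had a lower log2 ratio than Fgfr3 in Dgcr8 knockout cells and only 8 in Dicer knockout cells. Fgfr4, which in adult liver works with the co-receptor KLB in the control of bile acid synthesis, had 8 counts (0.719 CPM) in Dgcr8 knockout cells, 4 counts (0.325 CPM) in Dicer knockout cells and 37 counts (3.73 CPM) in WT. It was low in every library and lower in the knockouts, 5.18-fold (2.37 to 12.9) in Dgcr8 knockout cells and 11.5-fold (4.12 to 44.3) in Dicer knockout cells. With so few counts its call depends on the scale: with a pseudocount of 5 its log2 ratios were -0.61 and -0.71, inside the 2-fold limit.

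Fgfr1 and Fgfr2 did not share that fall. Fgfr1, the receptor through which embryonic stem cells mainly answer FGF4, had 1533 counts (138 CPM) in Dgcr8 knockout cells, 868 counts (70.5 CPM) in Dicer knockout cells and 1015 counts (102 CPM) in WT. WT lay between the knockouts. The CPM ratio to WT was 1.35 (1.24 to 1.46) in Dgcr8 knockout cells and 0.690 (0.629 to 0.756) in Dicer knockout cells, both within 2-fold. Fgfr1 lies on chromosome 8, where the median log2 ratio of 710 genes was -0.32 in the Dicer knockout against WT, and that of all genes was 0.10. In the Dgcr8 knockout the chromosome 8 median was 0.16. Fgfr1 itself was at -0.53 in Dicer knockout cells and 0.43 in Dgcr8 knockout cells, and the part of the chromosome in its level was not tested.

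Fgfr2, whose splice forms serve epithelia and mesenchyme and which is known in the blastocyst as a gene of the primitive endoderm and trophectoderm, had 55 counts (4.94 CPM) in Dgcr8 knockout cells, 250 counts (20.3 CPM) in Dicer knockout cells and 38 counts (3.83 CPM) in WT. The Dicer knockout was the high library, and the counting intervals of the Dgcr8 knockout and WT overlapped. Relative to WT, Fgfr2 was 5.31-fold higher (3.76 to 7.68) in Dicer knockout cells and at a ratio of 1.29 (0.839 to 2.01) in Dgcr8 knockout cells.

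The make-up of the receptor counts differed accordingly, and this measure does not depend on how libraries are scaled. Fgfr3 gave 0.375% (0.138 to 0.813) of the counts of the 4 receptor genes in Dgcr8 knockout cells and 0.444% (0.144 to 1.03) in Dicer knockout cells, against 20.1% (18.0 to 22.3) in WT. Fgfr1 gave 95.7% (94.6 to 96.6) in Dgcr8 knockout cells, 77.0% (74.4 to 79.4) in Dicer knockout cells and 74.4% (72.0 to 76.7) in WT. Fgfr2 gave 3.43% (2.60 to 4.45) in Dgcr8 knockout cells, 22.2% (19.8 to 24.7) in Dicer knockout cells and 2.79% (1.98 to 3.80) in WT. In the Dgcr8 knockout nearly all receptor counts thus came from Fgfr1, while in Dicer knockout cells Fgfr2 held about the share that Fgfr3 held in WT. The summed level of the 4 genes was 144 CPM in Dgcr8 knockout cells, 91.6 CPM in Dicer knockout cells and 137 CPM in WT. The interval of its ratio to WT ran from 0.975 to 1.13 in Dgcr8 knockout cells, and the ratio was 0.667 (0.616 to 0.722) in Dicer knockout cells. Shares are of counts, so a longer transcript weighs more, by the same factor in each library.

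**Figure D3:**
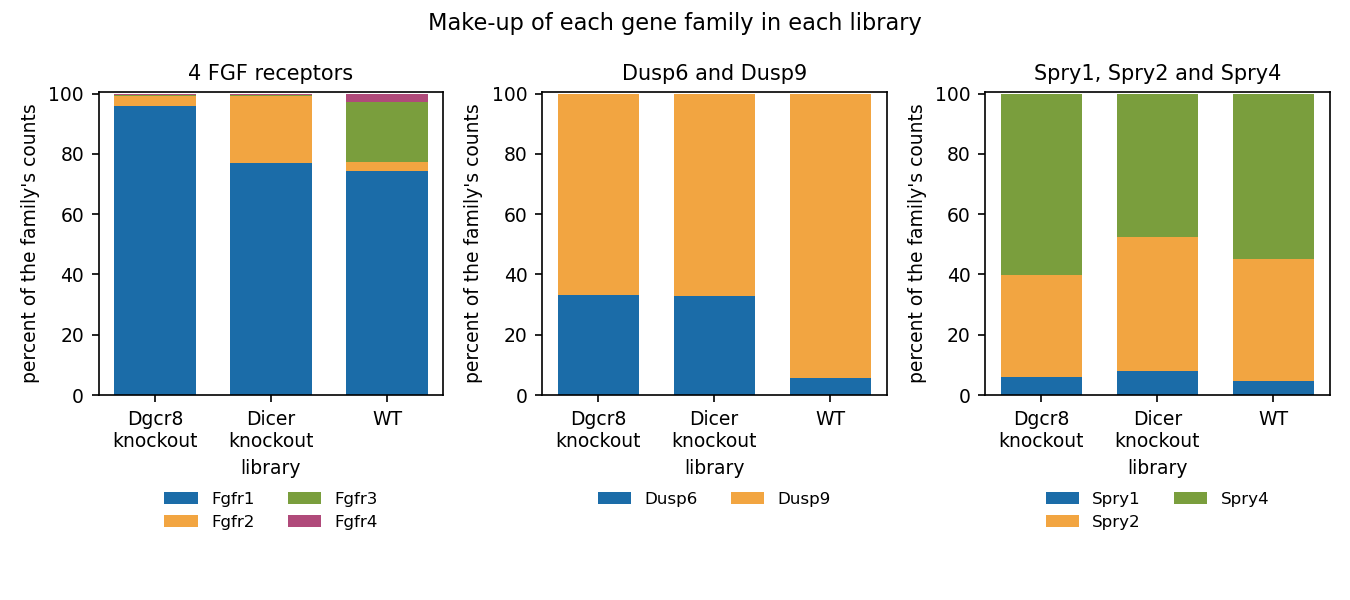
Share of each gene in the summed counts of its family (vertical axis, percent) in Dgcr8 knockout cells, the Dicer knockout and WT: FGF receptors (left), the phosphatase genes Dusp6 and Dusp9 (middle) and Sprouty genes (right). Fgfr3 fills 20.1% of the WT receptor bar and is barely visible in the knockouts, and Dusp6 makes up about as much of the pair in one knockout as in the other.

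Markers of other cell types also differed between the libraries. Of the primitive endoderm list, 8 of 10 markers had values here, and Sox17 and Foxa2 had none. The list summed to 44.9 CPM in Dgcr8 knockout cells, 69.8 CPM in Dicer knockout cells and 154 CPM in WT. Of those markers 3, 3 and 8 reached 1 CPM in Dgcr8 knockout cells, the Dicer knockout and WT. Each gene listed reaches 10 counts in some library, and Gata6, Sox7, Pdgfra and Cubn did so in WT alone. That they reached 1 CPM only in WT was thus set by the listing. Most of the WT sum was Lama1 (87.3 CPM) and Col4a1 (55.6 CPM), while the defining factor gene Gata6 had 3 counts in Dgcr8 knockout cells, 0 in Dicer knockout cells and 11 in WT, and Gata4 had 86 in Dgcr8 knockout cells, 75 in Dicer knockout cells and 15 in WT. Of the feeder fibroblast list, 5 of 11 markers had values here, and Col1a2, Col3a1, Postn, Lum, Dcn and Twist2 had none. Without Vim, which stem cells also express, its highest marker in WT was Thy1 at 17.6 CPM. Thy1 had 2.07 CPM in Dgcr8 knockout cells and 1.30 CPM in Dicer knockout cells. Col1a1 had 6 counts in Dgcr8 knockout cells, 5 in Dicer knockout cells and 97 in WT. In the same order Pdgfrb had 94, 10 and 126 counts, and Acta2, higher in the knockouts, had 14, 28 and 4. None of the 5 was at 0. The whole list summed to 574 CPM in Dgcr8 knockout cells, 343 CPM in Dicer knockout cells and 118 CPM in WT, most of it Vim. The primed epiblast list (8 of 10, without Fgf5 and T) went the other way from the primitive endoderm list. It summed to 233 CPM in Dgcr8 knockout cells, 276 CPM in Dicer knockout cells and 98.8 CPM in WT. The trophectoderm list (6 of 8, without Cdx2 and Elf5) summed to 229 CPM in Dgcr8 knockout cells, 186 CPM in Dicer knockout cells and 83.5 CPM in WT. None of these 14 markers was at 0. These sums hide markers that went the other way. Eomes, of the trophectoderm list, had 5.03 CPM in Dgcr8 knockout cells, 5.28 CPM in Dicer knockout cells and 10.2 CPM in WT. Pou3f1, of the primed list, was 2.99-fold lower (1.90 to 4.84) without Dgcr8. Most of the primed sum in each knockout came from Dnmt3b and Zic2. The part of other cell types or states in the receptor levels was not tested.

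The bases just before the start of Fgfr3 and Fgfr4, the receptor genes lower in both knockouts, and of Fgf4, at least 2-fold higher in both, are shown so that genes with opposite differences can be set side by side. They come from RefSeq (build GRCm38.p6). Each run is the 250 bases before the annotated start, on the plus strand, 5′ to 3′, and capitals mark the letters GGGCGG, the core of a GC box, or their reverse complement CCGCCC.
Fgfr3, chr5:33721474-33721723: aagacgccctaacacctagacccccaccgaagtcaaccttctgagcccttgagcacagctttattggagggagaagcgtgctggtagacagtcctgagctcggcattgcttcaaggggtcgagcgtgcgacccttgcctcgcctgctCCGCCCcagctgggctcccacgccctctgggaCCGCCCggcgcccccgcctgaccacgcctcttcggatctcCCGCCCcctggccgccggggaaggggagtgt
Fgfr4, chr13:55152568-55152817: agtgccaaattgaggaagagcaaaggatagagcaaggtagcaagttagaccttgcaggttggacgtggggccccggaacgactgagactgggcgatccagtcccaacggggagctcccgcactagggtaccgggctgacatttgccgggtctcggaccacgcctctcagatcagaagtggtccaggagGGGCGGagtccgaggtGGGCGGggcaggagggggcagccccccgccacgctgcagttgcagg
Fgf4, chr7:144861136-144861385: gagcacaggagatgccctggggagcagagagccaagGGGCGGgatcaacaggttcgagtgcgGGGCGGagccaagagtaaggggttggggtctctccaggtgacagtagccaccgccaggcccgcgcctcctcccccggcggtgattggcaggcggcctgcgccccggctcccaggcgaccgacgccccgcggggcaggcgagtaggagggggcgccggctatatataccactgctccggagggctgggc
GGGCGG occurred on either strand 3 times before Fgfr3, 2 times before Fgfr4 and 2 times before Fgf4, and in 32.7% of 32851 windows of the same length. The windows of Fgfr2, Dusp6 and Spry2 held none. The ETS letters CCGGAAG were found in 0 of the 8 windows of 7 members, 1 of them Fgf5, and in 6.91% of all windows, and the AP-1 letters TGACTCA in 0 of the 8 and in 4.46% of all. Genes lower and higher in the knockouts thus both carried GC boxes here. Their windows were rich in CpG, with 19, 15 and 21 CpG pairs for Fgfr3, Fgfr4 and Fgf4 and a median of 6 over all windows. Of all windows, 72.7% to 83.7% held fewer. The trait was not theirs alone: other members held 16 (Dusp6), 23 (Spry2), 24 (Fgf5) and 2 (Fgfr2). Fgfr3 has a further annotated start, whose window held 24.

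Fgf4 was the member at least 2-fold higher in both knockout libraries. It had 4623 counts (416 CPM) in Dgcr8 knockout cells, 4518 counts (367 CPM) in Dicer knockout cells and 1767 counts (178 CPM) in WT. The knockouts lay close together and above WT. The difference was 2.34-fold (2.21 to 2.47) in Dgcr8 knockout cells and 2.06-fold (1.95 to 2.18) in Dicer knockout cells, and 1307 of 13223 and 2023 of 13403 genes had a higher log2 ratio. The call of 2-fold in Dicer knockout cells rests on the scaling, since the log2 ratio of 1.04 became 0.94 with TMM scaling and 0.93 with median-ratio scaling. Fgf4 is neighboured by the ligand genes Fgf3 and Fgf15 on chromosome 7. Fgf15, an endocrine FGF of the gut, had 18.6 CPM in Dgcr8 knockout cells, 5.93 CPM in Dicer knockout cells and 5.34 CPM in WT, and so was high in Dgcr8 knockout cells alone. Fgf3 had 17 counts in Dgcr8 knockout cells, 4 in Dicer knockout cells and 14 in WT, too few to order the Dgcr8 knockout and WT.

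Of the feedback genes, Dusp9 changed most. DUSP9 is the ERK phosphatase known to be induced by BMP signalling in mouse embryonic stem cells and to keep ERK activity low there. It had 654 counts (58.8 CPM) in Dgcr8 knockout cells, 879 counts (71.4 CPM) in Dicer knockout cells and 5134 counts (517 CPM) in WT. WT stood far above both knockouts, which were close to each other. The level was 8.79-fold lower (8.10 to 9.55) in Dgcr8 knockout cells and 7.24-fold lower (6.74 to 7.78) in Dicer knockout cells, and 23 of 13223 and 72 of 13403 genes had a lower log2 ratio. Dusp9 lies on the X chromosome, whose genes had median log2 ratios of -0.30 in Dgcr8 knockout cells (469 genes) and -0.12 in Dicer knockout cells (483 genes). Dusp9 itself was at -3.11 in Dgcr8 knockout cells and -2.84 in Dicer knockout cells, and the part of the chromosome in its level was not tested. Its X-linked neighbour Pnck, a kinase gene, was also lower, with 30 counts in Dgcr8 knockout cells, 15 in Dicer knockout cells and 73 in WT.

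Dusp6, the other phosphatase gene, showed no such difference. It had 324 counts (29.1 CPM) in Dgcr8 knockout cells, 427 counts (34.7 CPM) in Dicer knockout cells and 306 counts (30.8 CPM) in WT. The 3 libraries had overlapping counting intervals. The ratio to WT was 0.945 (0.806 to 1.11) in Dgcr8 knockout cells and 1.13 (0.970 to 1.31) in Dicer knockout cells. Dusp6 made up 33.1% (30.2 to 36.2) of the counts of the pair in Dgcr8 knockout cells and 32.7% (30.2 to 35.3) in Dicer knockout cells, against 5.63% (5.03 to 6.27) in WT.

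Both Sprouty genes were lower in the knockouts. Spry2 had 340 counts (30.6 CPM) in Dgcr8 knockout cells, 472 counts (38.3 CPM) in Dicer knockout cells and 874 counts (88.0 CPM) in WT. It was 2.88-fold lower (2.54 to 3.27) in Dgcr8 knockout cells and 2.29-fold lower (2.05 to 2.57) in Dicer knockout cells. Spry4 had 611 counts (54.9 CPM) in Dgcr8 knockout cells, 508 counts (41.3 CPM) in Dicer knockout cells and 1179 counts (119 CPM) in WT. It was 2.16-fold lower (1.96 to 2.39) in Dgcr8 knockout cells and 2.88-fold lower (2.59 to 3.20) in Dicer knockout cells. In each gene both knockout libraries lay below WT, but Spry2 was the lower of the pair relative to WT in Dgcr8 knockout cells and Spry4 in Dicer knockout cells. Spry1, a further Sprouty gene, had 62 counts (5.57 CPM) in Dgcr8 knockout cells, 84 counts (6.82 CPM) in Dicer knockout cells and 98 counts (9.87 CPM) in WT, lower in the knockouts but within 2-fold. Summed over these 3 genes, Sprouty transcripts were 2.38-fold lower (2.21 to 2.57) in Dgcr8 knockout cells and 2.51-fold lower (2.33 to 2.70) in Dicer knockout cells. Ndfip2, the coding gene next to Spry2, which encodes an adaptor of ubiquitin ligases, had a pattern like it, with 21.3 CPM in Dgcr8 knockout cells, 22.1 CPM in Dicer knockout cells and 64.6 CPM in WT, and a shared regional difference was not tested.

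The knockouts were also compared with each other, without the WT library. Of the 7 members at 1 CPM or more in either knockout, 1 was at least 2-fold lower in Dgcr8 knockout cells and 0 were higher, where 5.05% and 4.15% of 12986 genes were, 9.2% in all. That gene was Fgfr2, 4.11-fold lower (3.06 to 5.61) in Dgcr8 knockout cells, with 135 genes at a lower log2 ratio. Fgfr1 was 1.95-fold higher (1.80 to 2.13), just inside the limit, with a median log2 ratio of 0.47 for the 691 genes of chromosome 8 tested in that pair and 0.96 for Fgfr1. The ratios of Fgf4, Dusp6, Dusp9, Spry2 and Spry4 lay between 0.797 and 1.33. Spry4 was the highest of these 5, at 1.33 (interval from 1.18), and Spry2 the lowest, at 0.797 (0.691 to 0.918). Fgfr3 and Fgfr4 were under 1 CPM in both knockouts, and with 4 to 8 counts in each library their ratios of 1.33 (0.338 to 5.50) and 2.21 (0.593 to 10.04) do not order the knockouts.

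The other genes of the pathway were read from 6 lists. In contrast to the members, the feedback, cascade, adaptor and heparan sulphate lists held no gene at least 2-fold lower in a knockout. The lists of other ligands and of ERK response genes did hold such genes. Of all genes tested, 8.02% were lower and 14.3% higher without Dgcr8, and 9.7% lower and 16% higher without Dicer. In lists this short, 0 lower is therefore not far from the share of all genes. Of 17 other feedback inhibitors, 6 were higher by 2-fold or more and 0 lower in Dgcr8 knockout cells, with a median log2 ratio of 0.47, and 6 were higher and 0 lower in Dicer knockout cells, with a median of 0.36. With TMM or median-ratio scaling 3 were higher in Dgcr8 knockout cells and 5 in Dicer knockout cells, and with a pseudocount of 5 the counts were 2 and 4. Il17rd, which encodes the FGF receptor antagonist SEF, had 45.8 CPM in Dgcr8 knockout cells, 51.2 CPM in Dicer knockout cells and 9.77 CPM in WT. It was 4.69-fold higher (3.77 to 5.89) without Dgcr8 and 5.24-fold higher (4.23 to 6.56) without Dicer. Dusp16, a phosphatase gene for JNK and p38, was 2.20-fold (1.89 to 2.58) and 2.96-fold (2.56 to 3.44) higher in the Dgcr8 and Dicer knockouts. Dusp8 had 12 counts in Dgcr8 knockout cells, 71 in Dicer knockout cells and 8 in WT. The list was drawn broadly and, as Dusp16 shows, is not made up of FGF feedback genes alone. The inhibitor genes thus did not move as 1 group: Il17rd was higher where Dusp9, Spry2 and Spry4 were lower. Spry1, also in this list, was lower in both knockouts but within 2-fold.

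Next came the genes that carry the signal. Of all genes, 14.3% were higher and 8.02% lower without Dgcr8, and 16% higher and 9.7% lower without Dicer. Of 14 genes of the cascade from RAS to ERK, 1 was at least 2-fold higher and 0 lower in Dgcr8 knockout cells, and the list's median log2 ratio to WT was -0.14 in Dgcr8 knockout cells and 0.14 in Dicer knockout cells. The gene was Ksr1, a scaffold of the cascade, which had 18.8 CPM in Dgcr8 knockout cells, against 8.56 CPM in WT, a call lost under median-ratio and TMM scaling and with a pseudocount of 5. Braf had 22.4 CPM in Dgcr8 knockout cells, 43.7 CPM in Dicer knockout cells and 24.97 CPM in WT. Of 12 receptor partners and adaptors, 4 were higher and 0 lower in each knockout, with medians of 0.65 and 0.43 in the Dgcr8 and Dicer knockouts. With a pseudocount of 5, 4 were higher without Dgcr8 and 2 without Dicer. Over all settings with a 2-fold limit, 3 to 4 were higher without Dgcr8 and 2 to 4 without Dicer. Sos2, an exchange factor that loads RAS with GTP, was 3.41-fold (2.54 to 4.66) higher without Dgcr8 and 3.84-fold (2.87 to 5.20) higher without Dicer. Sos1, of the same kind, was 1.62-fold (1.41 to 1.86) higher without Dgcr8 and 2.47-fold (2.17 to 2.82) higher without Dicer. Fgfrl1, a receptor-like gene without a kinase domain, had 18.7 CPM in Dgcr8 knockout cells, 16.4 CPM in Dicer knockout cells and 6.44 CPM in WT.

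Heparan sulphate genes cover the enzymes that make and edit the chains and the core proteins that carry them. Of 14 tested in Dgcr8 knockout cells 5 were higher, and of 15 in Dicer knockout cells 5 were higher. In either knockout 0 were lower, and the medians were 0.65 and 0.77. Over all genes, 14.3% and 16% were higher and 8.02% and 9.7% lower in the Dgcr8 and Dicer knockouts. Sulf1, an enzyme that removes sulphate groups from heparan sulphate outside the cell, had 105 CPM in Dgcr8 knockout cells, 53.2 CPM in Dicer knockout cells and 12.6 CPM in WT. Sulf2, of the same activity, had 645 CPM, 258 CPM and 137 CPM in Dgcr8 knockout cells, the Dicer knockout and WT. Sdc4, a syndecan core protein gene, was highest in Dicer knockout cells, at 299 CPM, with 136 CPM in Dgcr8 knockout cells and 58.3 CPM in WT. Of the other ligand genes, 2 of 7 were higher and 2 lower in Dgcr8 knockout cells, and 1 of 6 higher and 1 lower in Dicer knockout cells. With a pseudocount of 5 these counts were 1 higher and 1 lower without Dgcr8 and 0 either way without Dicer, and with a floor of 5 CPM 1 of 3 was higher and 0 lower without Dicer. Fgf1 had 10.2 CPM in Dgcr8 knockout cells, 9.75 CPM in Dicer knockout cells and 3.32 CPM in WT. Fgf17 had 9.17 CPM in Dgcr8 knockout cells, 16.5 CPM in Dicer knockout cells and 29.1 CPM in WT, 3.17-fold lower (2.52 to 4.02) without Dgcr8 and 1.76-fold lower (1.47 to 2.12) without Dicer.

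Genes that ERK signalling is known to induce or to act through were split. Leaving out the members, 4 of 17 were at least 2-fold higher and 4 lower in Dgcr8 knockout cells. In Dicer knockout cells 2 were higher and 4 lower, and the medians were 0.12 and 0.02. Of all genes, 14.3% were higher and 8.02% lower without Dgcr8, and 16% higher and 9.7% lower without Dicer. Some calls rest on few counts: Fosl1, lower in both, had 11 counts in WT and 0 in each knockout. Elk4, called higher without Dgcr8 only, had 57 counts there and 12 in WT. Etv4, an ETS factor gene known as an FGF target, had 35.9 CPM in Dgcr8 knockout cells, 25.7 CPM in Dicer knockout cells and 200.5 CPM in WT. It was 5.59-fold lower (5.02 to 6.24) without Dgcr8 and 7.81-fold lower (6.93 to 8.82) without Dicer. Egr1, an immediate early gene, went the other way, with 162 counts (14.6 CPM) in Dgcr8 knockout cells, 179 counts (14.5 CPM) in Dicer knockout cells and 18 counts (1.81 CPM) in WT. The cyclin gene Ccnd1 was 5.47-fold (5.11 to 5.86) higher without Dgcr8 and 4.46-fold (4.16 to 4.77) higher without Dicer.

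**Figure D4:**
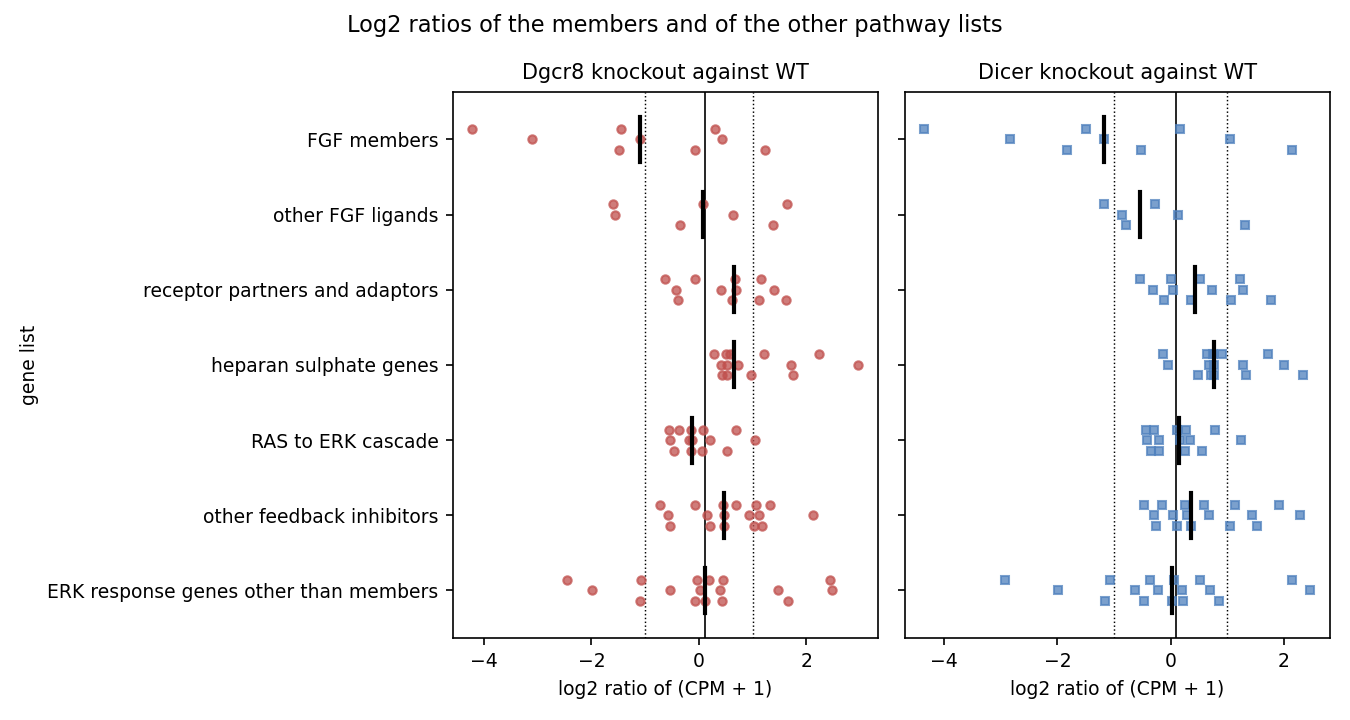
Log2 ratio of (CPM + 1) of the FGF members and of the genes of 6 other pathway lists in the Dgcr8 knockout against WT (left) and the Dicer knockout against WT (right); each point is a gene that reached 1 CPM in a library of the pair. Thick bars are list medians, the solid line is the median of all genes and the dotted lines mark 2-fold. The members' median lies at -1.10 and -1.18 and includes Fgfr3 and Fgfr4, which reached 1 CPM in WT alone. No gene of the heparan sulphate, adaptor or other feedback lists lies past 2-fold on the lower side, where 8.02% and 9.7% of all genes lie. In lists this short that is not far from the share of all genes.

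Mature miRNAs were measured in WT cells only. Several have been reported to act on members in other cells, miR-21 on Sprouty genes in mouse heart and human tumour cells, miR-99a and miR-100 on FGFR3 in human bladder cancer cells, miR-16 on FGFR1 in human endothelial cells and the miR-181 family on Dusp6 in mouse T cells. Their mature sequences are shown to set the seeds side by side, from RefSeq (GRCm38.p6), 5′ to 3′ with the seed (bases 2 to 8) in capitals.
miR-21a-5p: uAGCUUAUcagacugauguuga
miR-99a-5p: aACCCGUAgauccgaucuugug
miR-100-5p: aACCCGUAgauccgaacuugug
miR-16-5p: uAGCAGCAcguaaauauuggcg
miR-181a-5p: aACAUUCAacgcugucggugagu
miR-181d-5p: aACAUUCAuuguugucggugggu
miR-21a-5p had 12199 of the 2594949 small RNA reads, 0.470% (0.462 to 0.479), and ranked at 19 of 707 miRNAs listed. The 5 listed miRNAs with the seed of miR-16-5p had 0.344% (0.337 to 0.351), of which miR-16-5p itself had 7306 reads. The 4 with the miR-181 seed had 4289 reads, 0.165% (0.160 to 0.170), nearly all from miR-181d-5p (3421 reads) and miR-181c-5p (860 reads), and miR-181a-5p had 3 reads. The 3 with the seed of miR-99a-5p and miR-100-5p had 1112 reads, 0.0429% (0.0404 to 0.0454), with 862 from miR-99b-5p. The genes named with them did not share 1 direction in the knockouts: Spry2, Spry4 and Fgfr3 were lower, Dusp6 was near WT and Fgfr1 lay on either side of it. Target sites were not examined, and an action of these miRNAs on the members was not tested.

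The genes most like Fgfr3, the member with the largest fall in both knockouts, and Fgf4, the member with the largest rise when its smaller ratio counts, in their log2 ratios to WT were found by the distance between the pairs of ratios, over 11148 other genes that reached 5 CPM in any mRNA library. For Fgfr3 they were Crabp1, a retinoic acid binding protein gene (distance 0.16), the steroid synthesis gene Cyp11a1 (0.44) and the metalloreductase gene Steap1 (0.58). Crabp1 had 18 counts in Dgcr8 knockout cells, 16 in Dicer knockout cells and 501 in WT. For Fgf4 they were Slc25a1, the mitochondrial citrate carrier gene (0.02), Zfp428 (0.02) and Frrs1 (0.03). These 3 come from a crowd: within a distance that held 2 genes around Fgfr3, 1028 genes lay around Fgf4. Slc25a1 had 1945 counts in Dgcr8 knockout cells, 1923 in Dicer knockout cells and 739 in WT.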

How the data were processed

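The labels name 3 mRNA libraries, from the Dgcr8 knockout, the Dicer knockout and WT, and 1 small RNA library from WT. The authors deposited whole-number counts per RefSeq transcript entry and per mature miRNA, as the values show. Libraries were stranded and poly(A)-selected, per the labels' protocols, and Bowtie and mm9 are named in the submitters' processing notes. How reads were counted, and whether by strand, is not stated in the labels. Every row reaches 10 counts in at least 1 library, and empty cells were read as 0, which no member had.

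CPM were taken over each column's total. Log2 ratios used a pseudocount of 1, which understates the change of low genes, and genes that reached 1 CPM in a library of the pair. A call was 2-fold. Ratios of CPM carry exact conditional binomial intervals, and shares exact Clopper-Pearson intervals, at 95%. PCR reads are not independent molecules, so these cover counting error only. With 1 library per group no test was possible. Python 3.11.15 with scipy 1.17.1 was used, and edgeR 4.0.16 for TMM scaling.

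The members and lists were chosen with earlier results of these data known, and the miRNAs and motifs after the members' values were seen. Of each list, up to 3 genes at 5 CPM or more with the largest ratio to WT are named, and for the member with the largest fall and that with the largest rise, by the smaller of its 2 log2 ratios to WT, the 3 nearest genes. Marker genes, Fgf3, Spry1, Fosl1, Elk4, Etv1, Etv5 and genes next to a member were named after their values were seen. Names and neighbours come from RefSeq GRCm38.p6, to which 13641 rows matched by accession. Spry4 sequence and 1 gene that the naming rule takes are not reported here.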

Additional observations from a re-analysis of the deposited data

Results flagged for a closer look

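Fgfr1 was above WT in one knockout and below it in the other. Its CPM ratio to WT was 1.35 in Dgcr8 knockout cells and 0.690 in Dicer knockout cells, with counting intervals of 1.24 to 1.46 and 0.629 to 0.756, and it was singled out because these lie on opposite sides of 1. With 1 library each the difference was not tested. The genes of chromosome 8, where Fgfr1 lies, had median log2 ratios of 0.16 in Dgcr8 knockout cells and -0.32 in Dicer knockout cells, and their part in the Fgfr1 values was not tested.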

How the results depend on the processing

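No paired analysis was possible because each group has 1 library. Of 147 member log2 ratios recomputed under 6 other settings, 135 moved by less than their counting error (the distance from the centre of the interval to its end, on the log2 scale), 12 moved further, 0 that had been called reversed, and 4 crossed the 2-fold limit. Those 4 were Fgf4 in Dicer knockout cells under TMM (0.94) and median-ratio scaling (0.93), and Fgfr4 in the Dgcr8 (-0.61) and Dicer knockouts (-0.71) with a pseudocount of 5. A 4-fold limit left 2 members called in the Dgcr8 knockout against WT (0 higher, 2 lower), 3 in the Dicer knockout against WT (1 higher, 2 lower) and 0 between the knockouts, and a 1.5-fold limit gave 2 between the knockouts. The members' median was -0.61 and -0.71 in the Dgcr8 and Dicer knockouts against WT with a pseudocount of 5, and -0.85 in Dicer knockout cells with a floor of 5 CPM, which leaves 8 members. Between the knockouts it was -0.24, and 0.13 without a floor, where Fgfr3 and Fgfr4 enter with 4 to 8 counts. Median-ratio and TMM scaling moved the median of all genes by -0.13 and -0.11 in Dgcr8 knockout cells and by -0.11 and -0.10 in Dicer knockout cells. Genes higher then made up 53.6% and 55.4% of the calls in Dgcr8 knockout cells instead of 64.1%, and 55.4% and 55.6% in Dicer knockout cells instead of 62.3%. Depth limits Fgfr3 and Fgfr4, which had 8 counts or fewer in each knockout.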
